A study of Mus musculus with 6 samples.

Results

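Src, Lyn, Fgr, Fyn and Yes1 of the Src family of tyrosine kinases, their inhibitory kinase Csk, and Syk, the kinase that works beside them at immune receptors, were followed in mouse macrophages with less Lamtor5. The 7 genes were chosen by name among the 55401 genes of the deposited table, and each name matched 1 identifier. They were chosen with earlier results of the same comparison known, so their values are a description: no p-value is given for them, and how many passed a threshold is stated only beside the share over all genes and supports nothing. The cells were bone marrow-derived macrophages (BMDM), which grow out of bone marrow in the presence of M-CSF, and all 6 libraries came from M-CSF-induced cells. Of these libraries 3 carried the genotype label Lamtor5 knockdown and 3 the label WT. Lamtor5, also known as HBXIP, is a part of the Ragulator complex on the lysosome surface. The series describes the mutant as HBXIPΔLysM. LysM is the lysozyme gene Lyz2, whose promoter is used to drive Cre in myeloid cells, and Lyz2-driven Cre can leave a share of cells with an intact gene. The labels do not tell whether replicates stem from different mice or cultures, so p-values reflect only library-to-library spread, which may be technical.

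Src family kinases are held at the inner face of the plasma membrane by lipid anchors, and each consists of an SH3 domain, an SH2 domain and a kinase domain. Csk phosphorylates a tyrosine in their C-terminal tail, which folds the kinase into a closed, inactive form, and phosphatases such as CD45 (Ptprc) remove that phosphate. When an Fc receptor, or a C-type lectin that uses an adaptor, is clustered, Src family kinases phosphorylate the ITAM motifs of that adaptor. Syk docks on them through its paired SH2 domains, and the signal passes to Plcg2, Vav proteins and phosphoinositide 3-kinases. The same kinases phosphorylate ITIM motifs of inhibitory receptors, which recruit the phosphatase SHP-1 (Ptpn6), and they act below integrins in macrophage spreading. Lyn and Fgr are among the family members known from macrophages, and Src is required for osteoclast function.

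The libraries held 26.0 M to 27.99 M read pairs and 75.8 M to 83.2 M estimated counts. Lamtor5 was at 25.5, 27.1 and 24.8 FPKM (fragments normalised to transcript length and library size) in knockdown replicates 1 to 3 and at 55.9, 54.5 and 56.2 FPKM in WT replicates 1 to 3, so the knockdown mean was 46.5% of the WT mean. Defining macrophage markers were present in every library: Cd68 was at 1273 to 1571 FPKM in the knockdown and at 930 to 971 FPKM in WT, and Csf1r, the M-CSF receptor gene, was at 160 to 223 and 347 to 541 FPKM. Knockdown replicate 3 stood apart in Lyz2, with 73.6 FPKM against 10650 and 11356 FPKM in the other knockdown libraries and 22454 to 29379 FPKM in WT. Summed over 8 macrophage markers, Lyz2 among them, the level was 2048 to 13255 FPKM in the knockdown and 24313 to 31443 FPKM in WT. In every library but knockdown replicate 3 most of that sum was Lyz2. Its difference between the groups is therefore mostly that of Lyz2 and does not describe the other markers. Lyz2 is also the gene named in HBXIPΔLysM, and the part of that allele in the Lyz2 values was not tested. The Lyz2 values are therefore not read as a measure of macrophage identity. For the 7 genes, log2 fold changes are therefore also given without knockdown replicate 3. For other genes named with an edgeR adjusted p under 0.05, the calls that end without it are stated.

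The kinases spanned a wide range of levels, from Yes1 near 0 to Syk, and the 7 stood in the same order in both groups. In WT the levels per length ran from Syk (55.9 ± 5.91 FPKM; mean ± SD, n = 3, as for all such values) through Lyn (42.0 ± 3.22), Csk (34.7 ± 1.71), Fgr (19.3 ± 4.51), Fyn (12.5 ± 4.02) and Src (2.57 ± 0.193) to Yes1 (0.0363 ± 0.00581). In the knockdown they ran from Syk (61.5 ± 0.882) through Lyn (36.1 ± 0.120), Csk (26.7 ± 2.26), Fgr (13.9 ± 1.16), Fyn (7.22 ± 1.25) and Src (6.32 ± 0.608) to Yes1 (0.0261 ± 0.00418). Neighbours whose ranges overlapped were Fgr and Fyn in WT, and Fyn and Src in the knockdown. Src, well below Lyn, Fgr and Fyn in WT, thus lay at the level of Fyn in the knockdown.

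**Figure D1:**
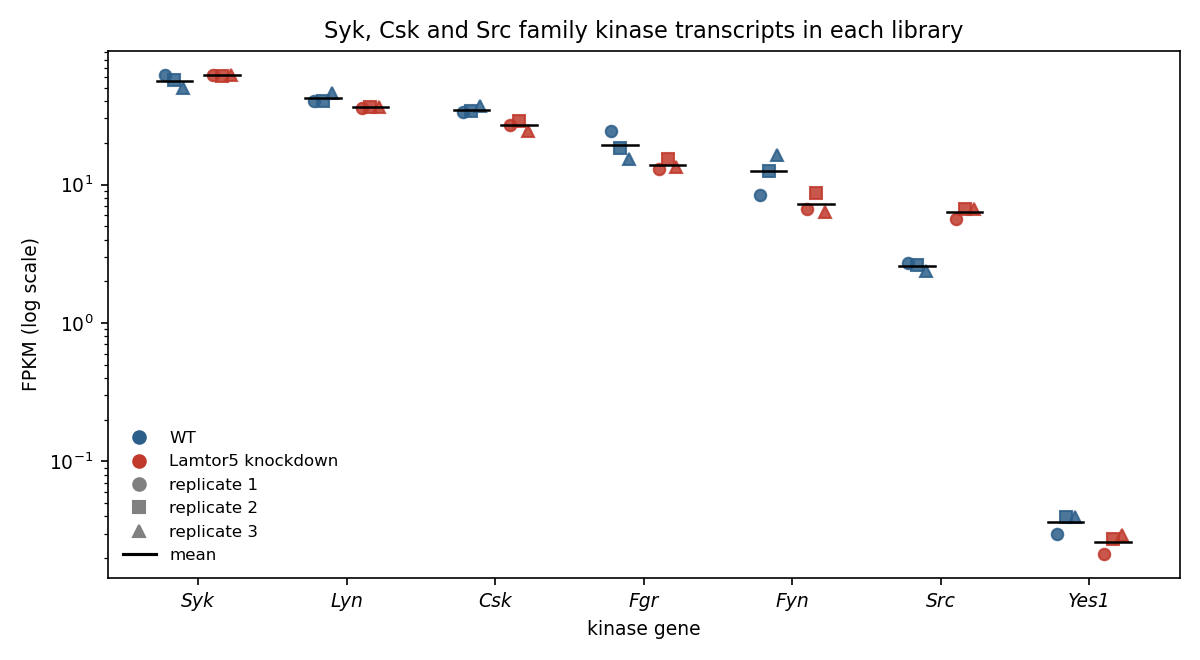
FPKM of Syk, Csk and 5 Src family kinases in each library on a log scale; blue points are WT, red points are Lamtor5 knockdown, the marker shape gives the replicate and the black bar is the mean of 3 libraries. Src is the only gene shown whose red points all lie above its blue points. Lyn, Csk, Fgr and Yes1 have all red points below, Yes1 near the limit of detection. The ranges of Syk and Fyn overlap.

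In the comparison of knockdown with WT, the 7 genes moved apart. Src was higher, and Csk, Fyn, Fgr and Lyn were lower on average. Syk was slightly higher on average, by about as much as Lyn was lower, and its groups overlapped. Log2 fold changes of knockdown over WT with their standard errors come from edgeR's fit of all genes. By that fit's threshold (adjusted p under 0.05) 1 of the 7 was higher (Src) and 1 lower (Csk), and over all 18164 genes tested 4.87% were higher and 6.46% lower, 11.3% in all. The FPKM ranges of the groups did not overlap in 5 of the 7, 1 higher and 4 lower in the knockdown, against 37.6% of all genes tested (16.3% higher, 21.3% lower). Among the 4 lower was Yes1, near the limit of detection, with 21 estimated counts in both knockdown replicate 3 and WT replicate 1. In edgeR fits that left out 1 library Csk passed in none of 6, Src passed in all but that without WT replicate 2, and Fyn passed in that without WT replicate 1. Since the genes were chosen with this comparison known, nothing is read from these counts. Without knockdown replicate 3 the log2 fold changes were 1.29 for Src, -0.18 for Lyn, -0.41 for Fgr, -0.67 for Fyn, -0.48 for Yes1, -0.28 for Csk and 0.17 for Syk, each in the direction of the fit with all libraries. The median log2 fold change was -0.33 over the 7 and 0.02 over all genes tested.

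Src (ENSMUSG00000027646, GRCm38 chromosome 2, 157418444 to 157471838, plus strand) encodes the founding member of the family, a kinase made in many tissues that acts in adhesion and growth factor signalling. It was at 5.62, 6.65 and 6.69 FPKM in the knockdown libraries and at 2.72, 2.64 and 2.36 FPKM in WT. Every knockdown library was above every WT library, and the knockdown mean was 246% of the WT mean. The log2 fold change was 1.34 (SE 0.117), and it stayed between 1.27 and 1.41 when any single library was left out (1.29 without knockdown replicate 3). In FPKM terms Src remained a minor transcript beside Syk, Lyn and Csk in both groups. Of 7 osteoclast markers 4 were tested and none passed. Their summed level was 52.8 to 101 FPKM in the knockdown and 70.1 to 85.1 FPKM in WT, and the osteoclast genes Calcr, Ocstamp and Oscar were at 0 or below 0.31 FPKM in every library. In every library most of that sum was Ctsk, so the sum does not describe the other osteoclast markers. The library with the highest osteoclast sum was knockdown replicate 3, where Ctsk was at 92.3 FPKM.

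The sequences upstream of start sites are shown for 3 genes that differ in direction, Src on the higher side and Csk and Fgr on the lower side. They are the 250 bases before a RefSeq start site, that of Src lying inside the gene as annotated, (GRCm38.p6), written 5′ to 3′ on the strand of the gene. Capitals mark GAGGAA or its reverse complement TTCCTC, a core bound by ETS factors such as the macrophage regulator PU.1.
Src, chr2:157424043-157424292, plus strand: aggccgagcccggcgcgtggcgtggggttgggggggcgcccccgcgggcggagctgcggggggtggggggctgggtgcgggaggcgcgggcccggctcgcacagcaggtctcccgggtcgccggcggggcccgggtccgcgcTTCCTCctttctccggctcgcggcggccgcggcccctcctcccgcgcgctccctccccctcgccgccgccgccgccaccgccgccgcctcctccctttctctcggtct
Csk, chr9:57645654-57645903, minus strand: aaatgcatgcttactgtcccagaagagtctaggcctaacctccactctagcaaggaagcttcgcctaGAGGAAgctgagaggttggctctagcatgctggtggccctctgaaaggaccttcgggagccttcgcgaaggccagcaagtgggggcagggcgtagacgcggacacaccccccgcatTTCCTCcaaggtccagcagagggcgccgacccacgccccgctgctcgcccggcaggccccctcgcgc
Fgr, chr4:132973845-132974094, plus strand: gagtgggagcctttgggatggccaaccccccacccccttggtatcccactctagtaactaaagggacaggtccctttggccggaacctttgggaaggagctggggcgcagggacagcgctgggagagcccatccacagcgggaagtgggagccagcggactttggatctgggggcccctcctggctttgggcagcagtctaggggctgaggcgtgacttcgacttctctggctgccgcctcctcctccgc
The Src stretch is 82.8% G and C and holds 1 such core, which begins 108 bases before the start site. The Csk stretch is 64% G and C and holds 2, which begin 183 and 67 bases before the start, and the Fgr stretch (64.4%) holds none. RefSeq gave 8 such windows for 6 of the 7 genes (Src, Fgr, Fyn, Yes1, Csk and Syk). The core was in 4 of these 8 windows, namely those of Src, both of Csk and 1 of the Syk pair. It was present in 23.3% of the 32851 mouse windows of this length searched on both strands. The E-box CACGTG, the core of the sites bound by the lysosomal regulators TFEB and MITF, was in none of the 8 windows and in 6.02% of all windows. The search motifs do not overlap each other, and a match is a match of letters only.

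Lyn, Fgr and Fyn were lower on average in the knockdown, each with its own spread. Lyn (ENSMUSG00000042228, chromosome 4, 3678115 to 3813122, plus strand), which can start both ITAM and ITIM signals, was at 36.0, 36.2 and 36.0 FPKM in the knockdown and at 39.9, 40.4 and 45.7 FPKM in WT. The groups did not overlap, but the difference was small: the knockdown mean was 85.9% of the WT mean and the log2 fold change was -0.17 (SE 0.077). Lyn was also the most even of these kinases across the knockdown libraries.

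Fgr (ENSMUSG00000028874, chromosome 4, 132974095 to 133001910, plus strand), a family member made mainly in myeloid cells, was at 13.05, 15.2 and 13.5 FPKM in the knockdown and at 24.2, 18.4 and 15.3 FPKM in WT. The lowest WT library, replicate 3, lay just above the highest knockdown library, replicate 2. The log2 fold change was -0.43 (SE 0.175), and it ranged from -0.58 without WT replicate 3 to -0.22 without WT replicate 1.

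Fyn (ENSMUSG00000019843, chromosome 10, 39368855 to 39565381, plus strand), a widely expressed family member also known for its part in T cell receptor signalling, was at 6.67, 8.65 and 6.34 FPKM in the knockdown and at 8.43, 12.6 and 16.5 FPKM in WT. Knockdown replicate 2 was above WT replicate 1, so the groups overlapped. The log2 fold change was -0.74 (SE 0.232), and it ranged from -0.95 without WT replicate 1 to -0.50 without WT replicate 3.

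Within WT, Fyn and Fgr ordered the libraries in opposite ways, and the 6 fixed markers of dividing cells differed between the same libraries. The summed level of these markers was 91.9, 163 and 204 FPKM in WT replicates 1 to 3, where Fyn was lowest in replicate 1 and highest in replicate 3 and Fgr the reverse. In the knockdown it was 19.4, 36.4 and 15.8 FPKM, and replicate 2, with the highest sum, was also the highest of its group in both Fyn and Fgr. All 6 markers passed edgeR's test as lower in the knockdown. In bulk RNA fewer cells of a kind and less RNA per cell cannot be told apart. The part of dividing cells in the Fyn and Fgr values was not tested.

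**Figure D2:**
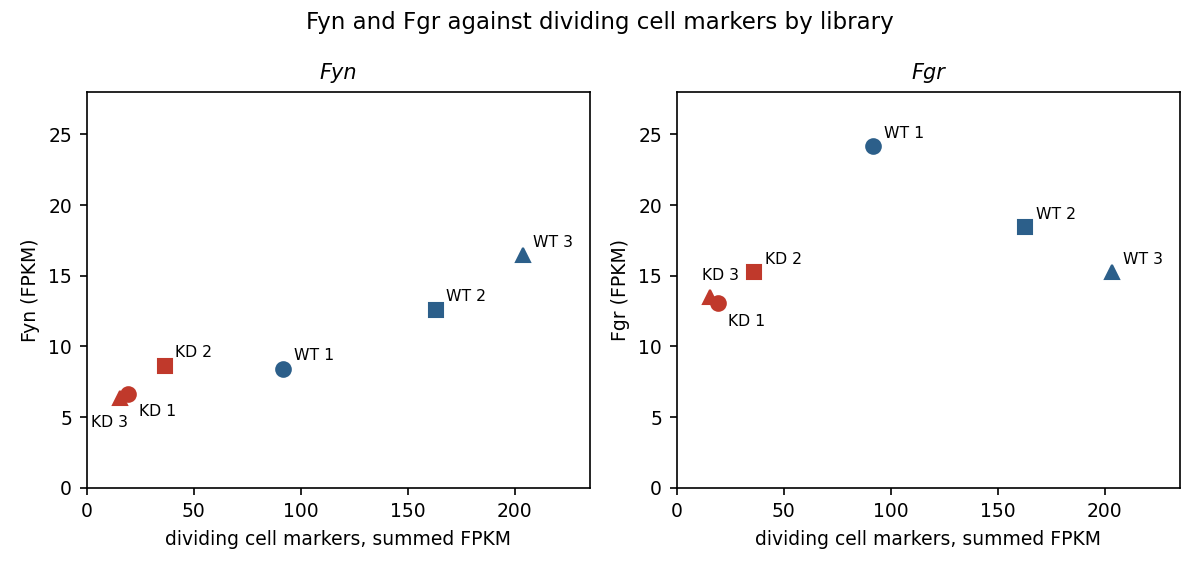
Fyn (left) and Fgr (right) in FPKM against the summed FPKM of 6 dividing cell markers, 1 point per library; blue is WT, red and KD are Lamtor5 knockdown. Among the WT libraries Fyn is highest and Fgr lowest where the marker sum is highest (204 FPKM, WT 3), and all knockdown libraries lie at a marker sum of 36.4 FPKM or less.

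Yes1 (ENSMUSG00000014932, chromosome 5, 32611171 to 32687057, plus strand), a close relative of Src found in many tissues, was near the limit of detection. Its estimated counts were 16, 18 and 21 in the knockdown and 21, 28 and 28 in WT, where the authors' counts amount to about 3 per read pair. The FPKM were 0.0214, 0.0272 and 0.0295 in the knockdown and 0.0296, 0.0397 and 0.0397 in WT. The standard error of its log2 fold change (-0.37, SE 0.461) was larger than the change itself, so a difference was not detectable at this depth.

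Within the sum of the 5 Src family members, which are not the whole family, only the shares of Src did not overlap between the groups. The 5 summed to 61.4, 66.8 and 62.6 FPKM in the knockdown and to 75.2, 74.1 and 79.8 FPKM in WT. Src held 9.16%, 9.96% and 10.7% of that sum in the knockdown and 3.62%, 3.56% and 2.95% in WT. The mean difference was 6.56 percentage points (6.18 without knockdown replicate 3), and no knockdown library came near a WT library. Lyn held the largest share in every library, 56.8% ± 2.31 in the knockdown and 54.9% ± 2.15 in WT, and these ranges overlapped. The share of Fgr was 21.9% ± 0.826 and 25.4% ± 6.52, and that of Fyn was 11.3% ± 1.46 and 16.3% ± 4.75. For both, the WT libraries spread widely and the ranges overlapped. Yes1 made up 0.0410% ± 0.00614 and 0.0475% ± 0.00733.

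With Csk and Syk counted in, Src held 3.73%, 4.26% and 4.50% of the sum over the 7 genes in the knockdown and 1.60%, 1.60% and 1.42% in WT. Syk then held the largest share, 40.5% ± 1.56 in the knockdown and 33.5% ± 3.20 in WT, without overlap. Lyn held 23.8% ± 0.524 and 25.1% ± 2.10, so its mean share was higher in the knockdown over 5 genes and lower over 7, with overlapping ranges both times. Csk held 17.6% ± 1.09 in the knockdown and 20.8% ± 1.204 in WT, without overlap. Set against single relatives, the ratio of Src to Lyn was 0.156, 0.184 and 0.186 in the knockdown and 0.0683, 0.0654 and 0.0515 in WT. The ratio of Src to Fyn was 0.843, 0.769 and 1.05 in the knockdown and 0.323, 0.210 and 0.143 in WT.

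**Figure D3:**
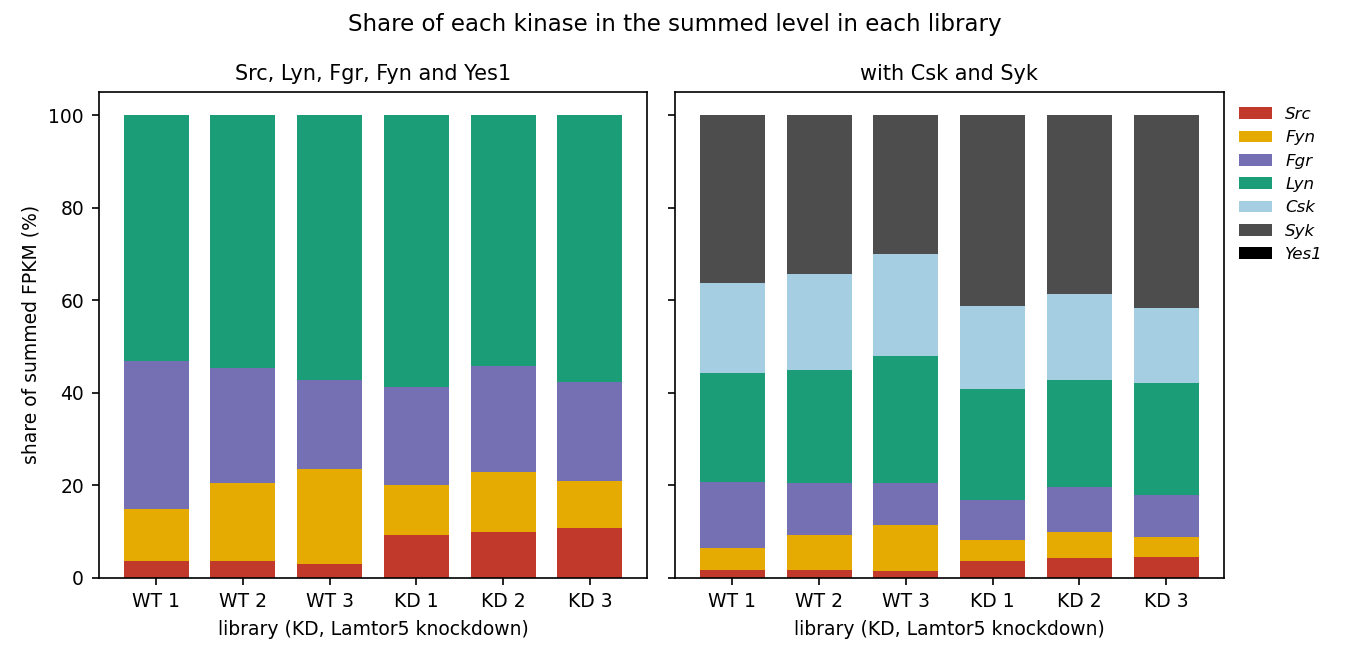
Share of each kinase in the summed FPKM, in percent, for each library (KD, Lamtor5 knockdown), over 5 Src family members (left) and over the 7 genes (right). The red Src segment covers 9.16% to 10.7% of the left bars in the knockdown and 2.95% to 3.62% in WT; Syk is the largest segment of every right bar, and Yes1 is too small to see.

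Csk (ENSMUSG00000032312, chromosome 9, 57626646 to 57645653, minus strand), the kinase that switches the family off, was at 26.9, 28.8 and 24.3 FPKM in the knockdown and at 33.5, 34.0 and 36.7 FPKM in WT. All knockdown libraries were below all WT libraries, and the knockdown mean was 76.9% of the WT mean. The log2 fold change was -0.33 (SE 0.079), and -0.28 without knockdown replicate 3. Csk and the sum of the 5 Src family members were both lower on average. Per FPKM of the 5 members, the level of Csk was 0.439, 0.432 and 0.389 in the knockdown and 0.445, 0.459 and 0.459 in WT, without overlap.

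Syk (ENSMUSG00000021457, chromosome 13, 52583173 to 52648792, plus strand), the kinase that carries ITAM signals onward, was at 62.1, 60.5 and 61.8 FPKM in the knockdown and at 61.5, 56.5 and 49.8 FPKM in WT. WT replicate 1 lay within the knockdown range, and the log2 fold change was 0.18 (SE 0.104). The ratio of Syk to the sum of the 5 Src family members was 1.01, 0.905 and 0.988 in the knockdown and 0.818, 0.762 and 0.623 in WT, without overlap. Against Lyn alone it was 1.73, 1.67 and 1.72 in the knockdown and 1.54, 1.40 and 1.09 in WT, again without overlap.

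Among Src family kinases outside the 7, Lck, the T cell kinase, was at 0.560 to 0.701 FPKM in the knockdown and 0.665 to 0.907 FPKM in WT (edgeR adjusted p = 0.471), while the T cell receptor genes Cd3d, Cd3e and Cd3g stayed at or below 0.0403 FPKM. Blk, a B cell kinase, was at 0.195, 0.241 and 0 FPKM in the knockdown and 0.323, 0.232 and 0.305 FPKM in WT (adjusted p = 0.609). The B cell markers were also lowest in knockdown replicate 3, with a sum of 1.11 FPKM against 1.89 and 5.49 FPKM in the other knockdown libraries and 5.80 to 8.21 FPKM in WT; their part in the Blk values was not tested. Of 5 kinases related to the family, to Csk or to Syk (Frk, Srms, Ptk6, Matk and Zap70), 2 passed the filter on low counts and none passed the test; Matk, the relative of Csk, was at 1.15 to 1.96 FPKM in the knockdown and 1.31 to 1.85 FPKM in WT.

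The genes that feed into these kinases or act after them were mostly lower where they passed the test. Of 119 tested genes in 7 lists, 6 rose and 27 fell, against 4.87% and 6.46% of all genes tested, and the median log2 fold change was -0.19. These counts depended on single libraries in edgeR: 3 rose and 7 fell without knockdown replicate 1, 5 and 15 without knockdown replicate 3, and 3 and 15 without WT replicate 3. Of all genes tested these fits called 1.98%, 4.15% and 3.29%. Without WT replicate 2 edgeR called none of them, nor any other gene of the table. There 51 of 119 list genes and 4065 of all 18979 genes had an unadjusted edgeR p under 0.05. Without the same library limma called none, with 48 of 109 list genes and 2985 of all 11487 genes at an unadjusted p under 0.05. DESeq2 then called 35 of 119 list genes and 13.9% of all genes.

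Among ITAM adaptors and the receptors that signal through Syk, 3 of 18 tested genes rose, 5 fell and 10 did not pass (median -0.02). The C-type lectin receptor gene Clec7a (Dectin-1, a receptor for fungal beta-glucan) rose: it was at 51.8, 44.9 and 78.7 FPKM in the knockdown and at 21.5, 11.99 and 11.8 FPKM in WT (log2 fold change 2.002, SE 0.327, edgeR adjusted p = 0.0171). Clec4e (Mincle, a receptor for mycobacterial glycolipid) rose from 34.5 ± 5.07 to 93.1 ± 15.9 FPKM (1.48, SE 0.167, adjusted p = 0.0103). The Fc receptor gene Fcgr4 rose from 29.8 ± 3.95 to 60.03 ± 12.9 FPKM (1.06, SE 0.189, adjusted p = 0.0206), whereas Fcgr1, the high-affinity IgG receptor gene, fell from 25.3 ± 4.44 to 5.65 ± 2.69 FPKM (-2.11, SE 0.376, adjusted p = 0.0205). Cd300lb (-0.61, adjusted p = 0.0114) and Sirpb1a (-1.40, adjusted p = 0.0233) fell too, as did Cd300ld (-0.86) and Clec5a (-0.36), which are named here because they complete the group. Sirpb1a has near-identical relatives, so its reads may have been split between copies. The adaptor genes Tyrobp and Fcer1g, which serve some but not all of these receptors, did not pass. Tyrobp (DAP12) was at 1039.7 to 1208 FPKM in the knockdown and 908 to 1083 FPKM in WT (adjusted p = 0.343). Fcer1g (the common gamma chain) was at 812 to 938 and 811 to 873 FPKM (adjusted p = 0.394). In edgeR fits without 1 library, every call named here with an adjusted p ended without WT replicate 2. Those of Clec7a, Fcgr4 and Sirpb1a also ended without knockdown replicate 1 and without WT replicate 3, and that of Fcgr1 without knockdown replicate 2. Without knockdown replicate 3 the log2 fold changes of Clec7a and Fcgr4 were 1.72 and 0.87. In that fit 4 genes of this list fell, so the call of Cd300ld or that of Clec5a had ended. This list also holds the inhibitory receptor gene Fcgr2b, which did not pass (0.41, adjusted p = 0.162).

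Of 18 tested genes in a list of inhibitory and related receptors, 1 rose, 4 fell and 13 did not pass, with a median of -0.20. Many of these receptors carry ITIM motifs, but the list also holds members not known for one, such as Siglec1, Cd200r1 and Clec4a3. Clec12a, an inhibitory lectin receptor gene, was at 9.70, 13.6 and 9.01 FPKM in the knockdown and at 33.7, 34.0 and 35.0 FPKM in WT (log2 fold change -1.62, SE 0.141, edgeR adjusted p = 0.00963). Cd72 fell from 45.0 ± 6.01 to 14.5 ± 4.74 FPKM (-1.59, adjusted p = 0.0133). The lectin receptor genes Clec4a2 (-1.46, adjusted p = 0.0183) and Clec4a3 (-1.45, adjusted p = 0.0204), neighbours of one gene family whose reads may be shared, fell as well. In edgeR fits without 1 library, the calls of these 4 ended without WT replicate 2, those of Cd72, Clec4a2 and Clec4a3 also without knockdown replicate 1, and that of Clec4a3 without knockdown replicate 3. Cd300a rose from 49.2 ± 4.43 to 72.0 ± 10.3 FPKM (0.60, adjusted p = 0.0358), a call that held in only 1 of the 6 edgeR fits without a library (that without WT replicate 1; adjusted p up to 0.139).

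The regulators of Src family activity held no gene that rose: of 19 tested, 4 fell and 15 did not pass, with a median of -0.17. Ptpn6, the phosphatase SHP-1 that ITIM receptors recruit, was at 78.5, 76.4 and 70.8 FPKM in the knockdown and at 125, 127 and 120 FPKM in WT (log2 fold change -0.67, SE 0.075, edgeR adjusted p = 0.0103). The adaptor gene Dok3 fell from 41.0 ± 0.499 to 20.1 ± 2.92 FPKM (-0.98, adjusted p = 0.0101). Ptpn22, a phosphatase that acts on Src family kinases with Csk, fell from 3.88 ± 0.321 to 1.94 ± 0.437 FPKM (-0.95, adjusted p = 0.0207). Ptpra, a receptor phosphatase that can activate Src by removing the tail phosphate, fell from 19.8 ± 2.17 to 13.7 ± 0.443 FPKM (-0.47, adjusted p = 0.0218) but passed without 1 of the 6 libraries only, WT replicate 1. In the same kind of fit the calls of Ptpn6, Dok3 and Ptpn22 ended without WT replicate 2, and that of Ptpn22 also without knockdown replicate 1 and without WT replicate 3. Neither the Csk anchor gene Pag1 (0.23, adjusted p = 0.227) nor Ptprc, the CD45 gene (-0.38, adjusted p = 0.0866), passed.

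Of 31 tested effector genes 1 rose, 9 fell and 21 did not pass, with a median of -0.20. Vav2, an exchange factor for small GTPases, rose from 3.75 ± 0.370 to 6.88 ± 0.496 FPKM (0.92, SE 0.119, edgeR adjusted p = 0.0114), while its relative Vav1, at 54.0 to 58.1 FPKM in the knockdown and 61.4 to 63.7 FPKM in WT, did not pass (adjusted p = 0.262). Card9, the adaptor that links Syk to NF-kB, fell from 34.4 ± 2.23 to 21.6 ± 2.004 FPKM (-0.62, adjusted p = 0.0164). Fyb, an adaptor in integrin activation, fell from 33.6 ± 2.43 to 17.0 ± 3.77 FPKM (-0.94, adjusted p = 0.0204), and the Tec family kinase gene Bmx from 0.918 ± 0.162 to 0.272 ± 0.0622 FPKM (-1.71, adjusted p = 0.0162). The calls of Vav2, Card9, Fyb and Bmx ended without WT replicate 2, those of Card9, Fyb and Bmx also without knockdown replicate 1, and that of Fyb without WT replicate 3. The remaining 6 that fell, given to complete the group, were the phosphoinositide 3-kinase genes Pik3cd (-0.84) and Pik3cg (-0.57), the adaptor gene Pik3ap1 (-0.40), Hcls1 (-0.61), Plcg2 (-0.36) and Was (-0.33). Without knockdown replicate 3 only 3 effector genes fell, Card9, Fyb and Bmx, so the calls of these 6 all ended. The Tec family kinase gene Btk did not pass (-0.19, adjusted p = 0.313).

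Among integrins and adhesion proteins 1 of 28 tested genes rose, 4 fell and 23 did not pass, with a median of -0.19. Itgb3, the beta chain of the vitronectin receptor, was at 88.5, 80.5 and 58.2 FPKM in the knockdown and at 23.9, 23.1 and 23.5 FPKM in WT (log2 fold change 1.74, SE 0.155, edgeR adjusted p = 0.00963). Itgav, its usual partner, did not pass (0.02, adjusted p = 0.943). The integrin gene Itga2b, a platelet marker, was at 18.3, 24.7 and 7.01 FPKM in the knockdown and at 10.7, 11.2 and 9.98 FPKM in WT. It did not pass either (0.69, adjusted p = 0.287), and the part of megakaryocytes or platelets in the Itgb3 values was not tested. Itga4 fell from 9.11 ± 0.114 to 4.74 ± 0.579 FPKM (-0.90, adjusted p = 0.00963) and Dock2, an exchange factor for Rac, from 35.9 ± 2.41 to 25.0 ± 1.72 FPKM (-0.48, adjusted p = 0.0159). Ptk2, the focal adhesion kinase that binds Src, fell from 2.39 ± 0.621 to 1.04 ± 0.163 FPKM (-1.15, adjusted p = 0.0196), and its relative Ptk2b, at 27.6 to 30.1 and 29.4 to 39.2 FPKM, did not pass (-0.19, adjusted p = 0.288). Itgam, a chain of the complement receptor Mac-1, fell from 90.4 ± 19.8 to 47.6 ± 10.6 FPKM (-0.87, adjusted p = 0.0428), and passed in none of the 6 edgeR fits without a library (adjusted p up to 0.11). The calls of Itgb3, Itga4, Dock2 and Ptk2 ended without WT replicate 2, those of Dock2 and Ptk2 also without knockdown replicate 1, and that of Ptk2 without knockdown replicate 3. Itgb2, the partner of Itgam, was at 342 to 361 FPKM in the knockdown and 341 to 378 FPKM in WT.

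**Figure D4:**
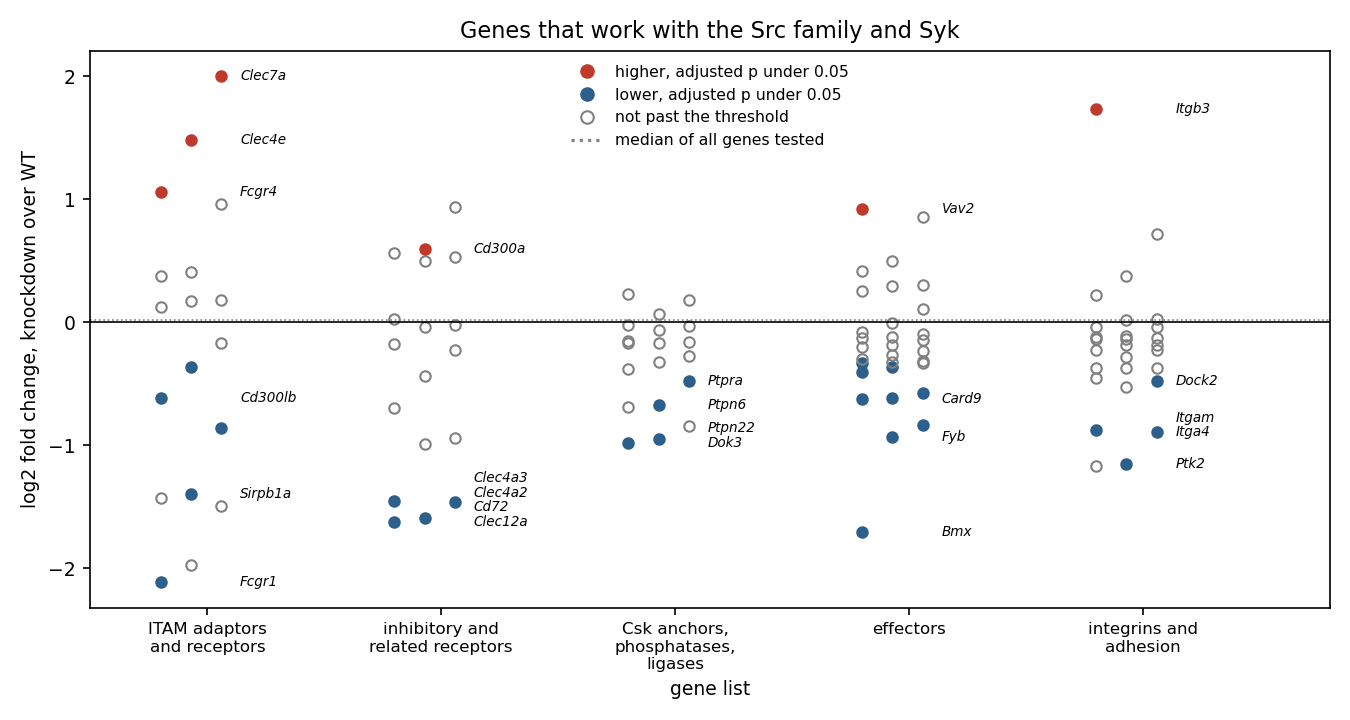
Log2 fold change of knockdown over WT for the tested genes of 5 lists, 1 point per gene; filled red and blue points passed an edgeR adjusted p of 0.05 as higher or lower, open points did not, the dotted line is the median of all genes tested (0.02) and italic names mark the genes described. Of the 6 red points 3 are ITAM receptor genes, with Clec7a highest at 2.002, and the regulator list has none.

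Each of the 7 genes was also set beside the tested genes with at least 5 FPKM that varied most like it over the 6 libraries (Pearson r of log2 CPM, 6608 or 6607 candidates). These values describe 6 points that share the split into 2 groups, and carry no p. Src was closest to Bcl2a1d (r = 0.997; 10.8 FPKM in the knockdown and 4.87 in WT) and Mrpl41 (r = 0.996). Fyn was closest to Endod1 (r = 0.999) and to Pcna, the DNA replication clamp (r = 0.997; 45.9 FPKM in the knockdown and 97.8 in WT). Among the genes most like Csk was Plcg2 (r = 0.998), a phospholipase that acts after Syk. For Lyn these were Cav2 (r = 0.993) and Gm26532 (r = 0.992), and for Fgr they were Stk24 (r = 0.993) and BC028528 (r = 0.991). For Syk they were Fbxl20 (r = 0.994) and Uqcrfs1 (r = 0.993), and for Yes1, with its few counts, Gm3851 (r = 0.991) and Gm24270 (r = 0.986).

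Other cell types that such a culture can hold were checked with fixed marker lists. Macrophage markers passed in 6 of 8 genes, 1 higher and 5 lower, and none of the 6 B cell, 3 tested T and NK cell, 5 platelet or 6 fibroblast markers passed. Of 5 tested mast cell and basophil markers 1 rose, with a summed level of 3.12 to 8.30 FPKM in the knockdown and 1.21 to 2.54 FPKM in WT, and of 8 neutrophil markers 1 rose and 1 fell, with sums of 78.6 to 125 and 101 to 153 FPKM. The platelet sum was 90.5 to 350 FPKM in the knockdown and 87.2 to 112 FPKM in WT, that of T and NK cells 2.74 to 3.97 and 2.48 to 3.43 FPKM, and that of fibroblasts 2.22 to 6.89 and 3.34 to 7.43 FPKM. Fyn, Lyn and Fgr are also made in lymphocytes or granulocytes, and the part of such cells in their values was not tested.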

How the data were processed

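RNA-seq was compared between 3 Lamtor5 knockdown and 3 WT libraries, grouped by the genotype label. The authors deposited a table with an estimated count and an FPKM value per gene and library, per the file headers; the counts are whole numbers that sum to 2.95 to 3.01 per read pair kept. Adapters were removed with cutadapt 1.9, per the trimming logs' file headers. The submitters' processing notes name GRCm38 and mm10 as builds. Strand use, aligner and counting program were not given in the sources used here. Lyn, Fyn and Yes1 overlap small antisense or pseudogene entries with mean counts of at most 59, and the other 4 overlap none.

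Estimated counts were fitted with edgeR 4.0.16 (filterByExpr with a minimum count of 10, TMM scaling, quasi-likelihood test, group only) over 18164 genes with Benjamini-Hochberg adjustment and a threshold of 0.05. The standard error was the log2 fold change divided by the square root of F. Shares and ratios used FPKM. Where the estimated count was 0, the FPKM was read as 0. The fit was also run on simulated counts with the same spread for every gene. Real genes differ in spread, so that run does not show how the fit behaves on these libraries. The members, gene lists, marker lists (macrophage, osteoclast, neutrophil, B, T and NK, mast, platelet, fibroblast and dividing cells) and tests were chosen with earlier results of these data known. Named were the 7 genes, Lamtor5, Lck and Blk, and in each list all genes past the threshold (over 6, the 3 higher and 3 lower with the smallest p); genes given for contrast or to complete a group were chosen after their values were seen. Of 125 list entries 1 name was not matched and 5 more were under the filter. Some genes that the rules would name are not reported here, but counts over lists include them. Alternatives were RLE scaling, DESeq2 1.42.0, no filter, limma 3.58.1 on log2(FPKM + 1) and its variants, counts divided by 3, a replicate block and each library left out; DESeq2 and limma without WT replicate 2 were added after seeing the data.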

Additional observations from a re-analysis of the deposited data

How the results depend on the processing

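Directions of the 7 genes did not change under any alternative that gave a value. The log2 fold change of Src was 1.03 in limma on log2(FPKM + 1) and 1.05 in the same without WT replicate 2; the added 1 FPKM shrinks changes of low genes by construction. Without single libraries it ranged from 1.27 to 1.41 for Src, -0.21 to -0.12 for Lyn, -0.58 to -0.22 for Fgr, -0.95 to -0.50 for Fyn, -0.48 to -0.27 for Yes1, -0.36 to -0.28 for Csk and 0.10 to 0.27 for Syk. Shares over a wider family total are not reported here. The share of Src differed by 2.62 points over all 7 genes and that of Lyn by -1.36 points (6.56 and 1.91 over the 5 members), so the direction for Lyn depended on the total chosen. Without single libraries the share differences were 6.18 to 6.95 points for Src, 0.95 to 3.20 for Lyn, -6.63 to -0.13 for Fgr, -7.49 to -2.78 for Fyn and -0.0106 to -0.0035 for Yes1. Of 119 pathway genes 13 rose in DESeq2 (6 in edgeR), and of all 18164 genes 1927 rose in DESeq2 (885 in edgeR). In limma without WT replicate 2, 0 pathway genes rose and 0 fell. Without single libraries 0 to 7 rose and 0 to 27 fell in edgeR. With the replicate number as a block 14 fell (27 without it), and 728 of all genes were called against 2058. The calls of Ptpn22, Ptpra, Fcgr4, Cd300a, Bmx, Dock2, Ptk2 and Itgam ended with the block. Same-numbered libraries deviated together with r of 0.0458, 0.0361 and -0.0108 over all genes tested. Such values cannot tell whether libraries of equal number share an animal or a day, so pairing stays unknown. Over the whole table DESeq2 called 4167 genes, and edgeR with no filter on low counts 1205 of 28119. Among the 7 genes DESeq2 called Fyn beside Src and Csk, and the call of Csk was absent with no filter and with the block. Yes1 gave no value in limma or with counts divided by 3, where it was under the filters, and depth limits its comparison.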
